A study of Mus musculus with 4 samples.

Results

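Lysosomal enzymes and membrane proteins were followed as a list of 42 mouse genes, taken by symbol, with no value as a criterion, although earlier results of these data were known when the list was drawn up. All 42 were found among the 23284 gene symbols of the deposited tables. The list holds 9 cysteine proteases, 3 other peptidases, 9 glycosidases, 4 sulfatases, 4 enzymes of lipid breakdown, 4 activator or carrier proteins, 8 membrane proteins and the transcription factor Tfeb. The libraries came from EGFP+ cells re-sorted from recipient marrow 24 h after transplantation of 100000 LSK cells. Each library was taken as a single recipient mouse. LSK cells are Lin- Sca1+ c-Kit+ marrow cells, the fraction rich in stem and multipotent progenitor cells. The donors were CAG-EGFP mice, in which EGFP is driven by the ubiquitous CAG promoter, so EGFP marks any donor-derived cell and no single cell type. The 5-FU group was 2 wild-type recipients given 5-fluorouracil intravenously at 200 mg/kg 2 days before transplantation, and the control group was 2 untreated wild-type recipients. The sources used here do not give the ages of the mice. The deposited tables of the 5-FU libraries carry a different day number in their column headers and in their names, and the times given here are those of the labels. 5-Fluorouracil (5-FU) is a pyrimidine analog that is toxic to dividing cells.

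The lysosome is the acidic compartment in which proteins, glycans, glycosaminoglycans and lipids taken up or set aside by the cell are broken down. Its soluble hydrolases are tagged with mannose 6-phosphate and sorted from the Golgi, heavily glycosylated membrane proteins line its inner face, and a V-type proton pump acidifies it. The factor TFEB and its relatives switch on many of these genes together by binding a short palindromic element in their promoters. In bone marrow the lysosome is prominent in macrophages, which digest dying cells and expelled erythroid nuclei, and progenitors carry lysosomes as well.

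Values are FPKM, which are read counts divided by transcript length and sequencing depth, so levels of different genes can be compared within a library. The libraries summed to between 678222 and 762107 FPKM. The label names stem and progenitor cells, and their markers were present, with Kit at 66.2 and 69.5 FPKM in 5-FU recipients, against 102.8 and 65.5 FPKM in control recipients. Macrophage markers were present as well, and the M-CSF receptor gene Csf1r stood at 116.4 and 67.2 FPKM in 5-FU recipients, against 204.3 and 225.6 FPKM in control recipients. None of the 24 macrophage markers examined was at 0 in all 4 libraries. The same held for the marker lists of the other cell types examined, so it does not tell cell types apart. In such bulk libraries fewer cells of a type and less RNA per cell cannot be told apart.

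Lysosomal transcripts were abundant in every library and lower in 5-FU recipients. The 42 genes together made up 2.55% and 1.45% of all FPKM in 5-FU recipients 1 and 2, against 3.11% and 3.64% in control recipients 1 and 2. In limma-trend across 11496 genes, with a filter of at least 1 FPKM in at least 2 libraries, 10 of the 41 tested genes fell and none rose at a Benjamini-Hochberg adjusted p under 0.05. At an unadjusted p under 0.05 these numbers were 25 lower and 0 higher. Over all tested genes 4.67% were called lower and 8.23% higher at the adjusted threshold. At the unadjusted one 1658 of the 11496 were lower and 1947 higher. The median log2 fold change was −0.78 over the 41 genes and −0.01 over all tested genes. A negative value was found in 37 of the 41 genes and in 5835 of the 11496. The gene that was not tested was Ctsk, the collagen-degrading cathepsin of osteoclasts, which was listed at 0 in 3 libraries and had 0.197 FPKM in control recipient 2.

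Without any variance model, 29 of the 42 genes had both 5-FU values below both control values, 3 were higher in both, and 10 overlapped. Such separation is common in these data: 30.7% of all tested genes lay below and 31.4% above in both 5-FU libraries. The number of genes past the threshold depended strongly on single libraries. It was 0 without control recipient 1 and 0 without control recipient 2, 33 without 5-FU recipient 1 and 15 without 5-FU recipient 2. At an unadjusted p under 0.05, 17 and 10 genes were lower without control recipient 1 or 2. Lower calls over all genes numbered 537 with all 4 libraries, 38 and 43 without control recipient 1 or 2, and 1876 and 765 without 5-FU recipient 1 or 2. All 10 genes were among the 33 and the 15. Scaling every library to the same sum left 7 of the 10, losing Ctsh, Lamp2 and Npc2, and a fit with no mean-variance trend left Ids and Man2b1.

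**Figure D1:**
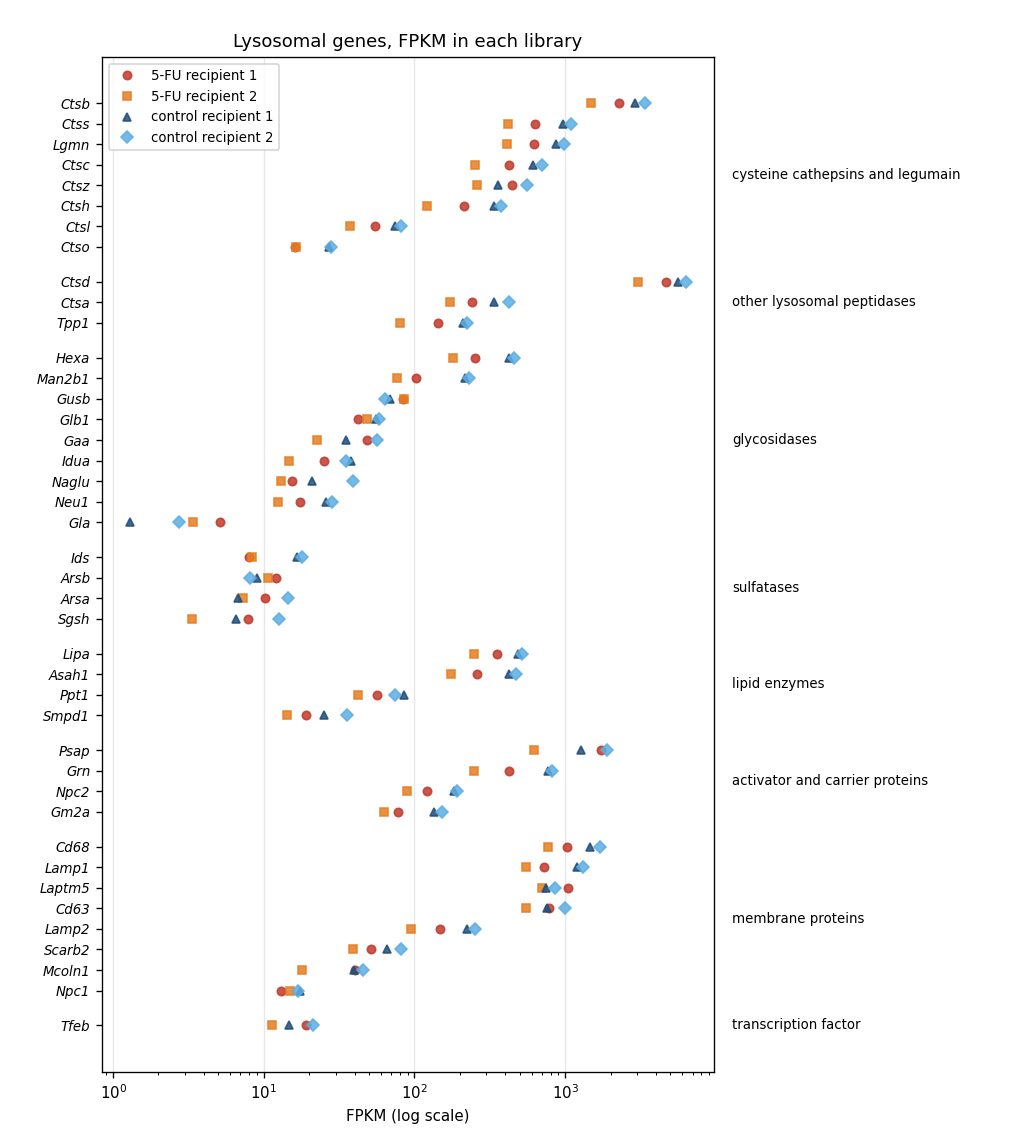
FPKM of the 41 tested lysosomal genes (log scale) in each of the 4 libraries, with 5-FU recipients in red and orange and control recipients in blue, grouped by role. Levels span from a few FPKM for Gla to 6355 FPKM for Ctsd, and in 29 of the 41 genes both 5-FU points lie left of both control points.

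The cathepsins and legumain, the proteases of the compartment, were among the most abundant transcripts. Of 8 tested cysteine proteases 1 fell and 7 did not pass, with a median log2 fold change of −0.82 and values from −1.14 to −0.40. The one that fell was Ctsh, cathepsin H, an aminopeptidase. Ctsh had 213 and 121 FPKM in 5-FU recipients 1 and 2, against 337 and 375 FPKM in control recipients 1 and 2. The groups did not overlap, and the log2 fold change was −1.14 (SE 0.28, adjusted p = 0.0408), or −0.73 without 5-FU recipient 2.

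Ctsb, the most abundant cysteine cathepsin, had 2266 and 1474 FPKM in 5-FU recipients, against 2913 and 3397 FPKM in control recipients (log2 fold change −0.78, SE 0.34, adjusted p = 0.164). Ctss, which cleaves the invariant chain of MHC class II, had 632 and 420.0 FPKM in 5-FU recipients, against 962 and 1092 FPKM in control recipients (log2 fold change −0.99, SE 0.27, adjusted p = 0.0538). Lgmn, the asparaginyl endopeptidase that processes cathepsins, had 623 and 409.5 FPKM in 5-FU recipients, against 867 and 980 FPKM in control recipients (log2 fold change −0.87, SE 0.27, adjusted p = 0.0749). In all 3 both 5-FU libraries were below both control libraries, yet none passed. Ctsc, which activates the serine proteases of granules, was at −0.998, Ctsl at −0.77 and Ctso at −0.73, also without overlap. Ctsz, a carboxypeptidase, was at −0.40 with overlapping groups, since control recipient 1 had 358 FPKM and 5-FU recipient 1 had 441 FPKM.

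The aspartic protease gene Ctsd was the most abundant of all 42. It had 4687 and 3062 FPKM in 5-FU recipients, against 5622 and 6355 FPKM in control recipients. Ctsd alone was 0.691% and 0.402% of all FPKM in the 5-FU libraries, against 0.826% and 0.937% in the control libraries. Both 5-FU values were below both control values, but the spread within the 5-FU pair was large, at 3874 ± 1149 FPKM in 5-FU and 5989 ± 518 FPKM in control recipients (mean ± SD, n = 2 each), and the change of −0.66 (SE 0.40) did not pass (adjusted p = 0.295). Ctsa, the carboxypeptidase that protects the sialidase and β-galactosidase, was at −0.89, and the tripeptidyl peptidase gene Tpp1 at −1.01. Neither of the last passed, at adjusted p = 0.0527 and 0.0542.

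Among the 9 glycosidases 2 fell, 7 did not pass, and the log2 fold changes ran from −1.32 to 0.82 with a median of −0.84. Man2b1, lysosomal α-mannosidase, had 102.2 and 76.2 FPKM in 5-FU recipients, against 215 and 229.7 FPKM in control recipients. Its means were 89.2 ± 18.4 FPKM in 5-FU and 223 ± 10.1 FPKM in control recipients, and it had the largest decrease of the 41 genes (log2 fold change −1.32, SE 0.21, adjusted p = 0.0145). Hexa, the α subunit of β-hexosaminidase, had 250.4 and 180.5 FPKM in 5-FU recipients, against 423 and 459 FPKM in control recipients (log2 fold change −1.05, SE 0.23, adjusted p = 0.0288). Both genes were without overlap between groups.

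The other glycosidases did not move as a block. Naglu and Idua, both enzymes of glycosaminoglycan breakdown, were at −0.96 and −0.89, and the sialidase gene Neu1 at −0.84. Glb1, β-galactosidase, was at −0.33. The acid α-glucosidase gene Gaa was at −0.42 with overlapping groups, and at 0.11 without 5-FU recipient 2. Gusb, β-glucuronidase, ran the other way, with 83.7 and 85.4 FPKM in 5-FU recipients, against 68.8 and 64.0 FPKM in control recipients. Both 5-FU values of Gusb were above both control values, with little spread in either pair, but the log2 fold change of 0.35 (SE 0.18) did not pass (adjusted p = 0.234). Gla, α-galactosidase A, had 5.10 and 3.39 FPKM in 5-FU recipients, against 1.29 and 2.75 FPKM in control recipients, at a level where few reads decide the value (log2 fold change 0.82, SE 0.37, adjusted p = 0.171).

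The 4 sulfatases were expressed at low levels. Ids, iduronate sulfatase, had 8.01 and 8.32 FPKM in 5-FU recipients, against 16.50 and 17.98 FPKM in control recipients. The 2 pairs were tight, with means of 8.17 ± 0.22 and 17.2 ± 1.04 FPKM in 5-FU and control recipients, and Ids fell by 0.99 on the log2 scale (SE 0.23, adjusted p = 0.0351). Arsb, which removes sulfate from dermatan sulfate, had 12.0 and 10.6 FPKM in 5-FU recipients, against 8.95 and 8.11 FPKM in control recipients, and did not pass (adjusted p = 0.345). Sgsh, heparan sulfamidase, had 7.82 and 3.34 FPKM in 5-FU recipients, against 6.55 and 12.7 FPKM in control recipients, and its log2 fold change of −0.72 was −0.20 without 5-FU recipient 2 and −0.29 without control recipient 2. Arsa, which degrades sulfatide, was at −0.19, and both genes had overlapping groups. The sign of Arsa turned to 0.32 without control recipient 2 and to 0.037 without 5-FU recipient 2.

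In all 4 enzymes of lipid breakdown both 5-FU values were below both control values, and 1 of them passed. Asah1, acid ceramidase, fell to 261 and 174 FPKM in 5-FU recipients, against 423 and 475 FPKM in control recipients (log2 fold change −1.07, SE 0.25, adjusted p = 0.0337). Lipa, the acid lipase that frees cholesterol from its esters, was at −0.77, the acid sphingomyelinase gene Smpd1 at −0.82 and the palmitoyl thioesterase gene Ppt1 at −0.70, with adjusted p-values from 0.0689 to 0.0749.

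Of the 4 activator and carrier genes 3 fell. Grn, which encodes progranulin, a precursor that is cut into granulins inside lysosomes, had 424 and 249.3 FPKM in 5-FU recipients, against 768 and 817 FPKM in control recipients (log2 fold change −1.28, SE 0.29, adjusted p = 0.0299). Gm2a, the activator that presents GM2 ganglioside to β-hexosaminidase, had 77.2 and 62.4 FPKM in 5-FU recipients, against 135 and 153 FPKM in control recipients (log2 fold change −1.04, SE 0.20, adjusted p = 0.0208). Npc2, the soluble cholesterol carrier, had 121.0 and 89.3 FPKM in 5-FU recipients, against 182 and 191 FPKM in control recipients (log2 fold change −0.84, SE 0.21, adjusted p = 0.0440). The enzyme subunit gene Hexa and its activator gene Gm2a were at −1.05 and −1.04. All 10 genes that fell lay between −1.32 and −0.84, so this likeness is not particular to the pair.

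The fourth carrier gene, Psap, encodes the precursor of the saposins, which activate sphingolipid hydrolases. Psap was split between the 5-FU libraries, at 1742 and 620.0 FPKM in 5-FU recipients 1 and 2, against 1268 and 1903 FPKM in control recipients 1 and 2. The value of 5-FU recipient 1 lay between the control values. The log2 fold change of −0.58 (SE 0.48, adjusted p = 0.448) became 0.17 without 5-FU recipient 2.

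**Figure D2:**
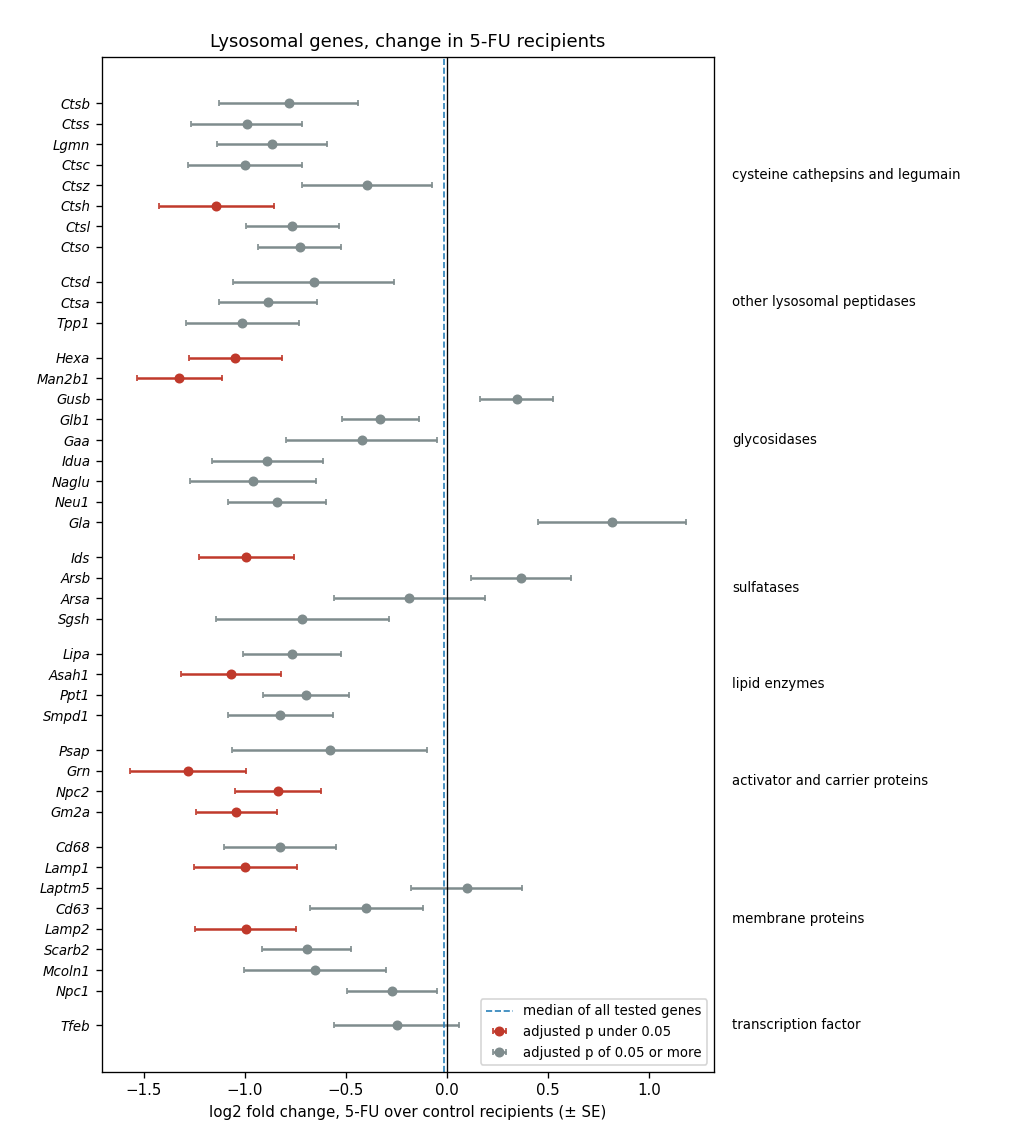
Log2 fold change of 5-FU over control recipients on the log2(FPKM + 1) scale for 41 lysosomal genes (points) with its standard error (bars), by role. The 10 red points passed an adjusted p under 0.05 and all lie between −1.32 and −0.84, and 4 grey points lie right of 0.

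Of the 8 membrane proteins 2 fell, and these were the LAMP pair that makes up much of the inner coat of the lysosomal membrane. Lamp1, on chromosome 8 at 13159161 to 13175338 (GRCm38.p6), had 720.1 and 553 FPKM in 5-FU recipients, against 1206 and 1318 FPKM in control recipients. Lamp2, on chromosome X from 38399647 to 38456460, was at 148 and 94.5 FPKM in 5-FU recipients, against 223 and 252 FPKM in control recipients. The log2 fold change was −0.998 for Lamp1 and −0.996 for Lamp2 (SE 0.26 and 0.25, adjusted p = 0.0441 and 0.0420, in the same order). Within a library the ratio of Lamp1 to Lamp2 was 4.86 and 5.85 in 5-FU recipients and 5.41 and 5.24 in control recipients, so the ratio overlapped between groups.

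Cd68, macrosialin, a LAMP relative rich in macrophages, had 1035 and 764 FPKM in 5-FU recipients, against 1471 and 1691 FPKM in control recipients (log2 fold change −0.83, SE 0.28, adjusted p = 0.0874). Its groups did not overlap, but it did not pass. Scarb2, the receptor that carries glucocerebrosidase to lysosomes, was at −0.69 and Npc1, the membrane partner of Npc2, at −0.27. Cd63, a tetraspanin of late endosomes, had 786 and 550.0 FPKM in 5-FU recipients, against 756 and 994 FPKM in control recipients, with overlap (log2 fold change −0.40, SE 0.28, adjusted p = 0.365). Mcoln1, the lysosomal calcium channel mucolipin 1, had 40.2 and 17.8 FPKM in 5-FU recipients, against 39.8 and 45.9 FPKM in control recipients (log2 fold change −0.65, SE 0.35, adjusted p = 0.241). In Mcoln1 it was 5-FU recipient 2 alone that lay below the control pair.

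Laptm5, a lysosomal membrane protein of hematopoietic cells, was the only one of the 22 genes with a control mean of at least 100 FPKM to have a positive fold change. It had 1040 and 706 FPKM in 5-FU recipients, against 750.4 and 853 FPKM in control recipients (log2 fold change 0.10, SE 0.27, adjusted p = 0.838). Its sign was negative under quantile normalization, at −0.14, and without 5-FU recipient 1, at −0.18. The ratio of Laptm5 to Cd68 within a library was 1.01 and 0.924 in 5-FU recipients and 0.510 and 0.504 in control recipients. A constant factor per library cannot alter such a ratio, though quantile normalization can. A similar within-library contrast was seen for Gusb over Hexa, at 0.334 and 0.473 in 5-FU recipients and 0.163 and 0.139 in control recipients. These pairs of genes were picked after their values were seen, and with 2 libraries a group an exact two-sided permutation test cannot go below p = 0.33, so no test was made of the ratios. Ctsd over Ctsb, the 2 most abundant genes of the list, was 2.07 and 2.08 in 5-FU recipients and 1.93 and 1.87 in control recipients.

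Most of the genes ranked the 4 libraries alike. In 36 of the 41 tested genes 5-FU recipient 2 was below 5-FU recipient 1, with a median ratio of 0.696, whereas over all tested genes 47.9% were below and the median ratio was 1.02. Control recipient 2 was above control recipient 1 in 36 of 41, with a median ratio of 1.13, against 5743 of 11496 genes and 0.999 over all tested genes. The full order of 5-FU recipient 2 lowest, then 5-FU recipient 1, control recipient 1 and control recipient 2 held for 23 of 41 genes, or 56.1%, and for 11.5% of all tested genes. Relative to the control mean of each gene, the median gene stood at −0.52 in 5-FU recipient 1 and −1.05 in 5-FU recipient 2 on the log2 scale.

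**Figure D3:**
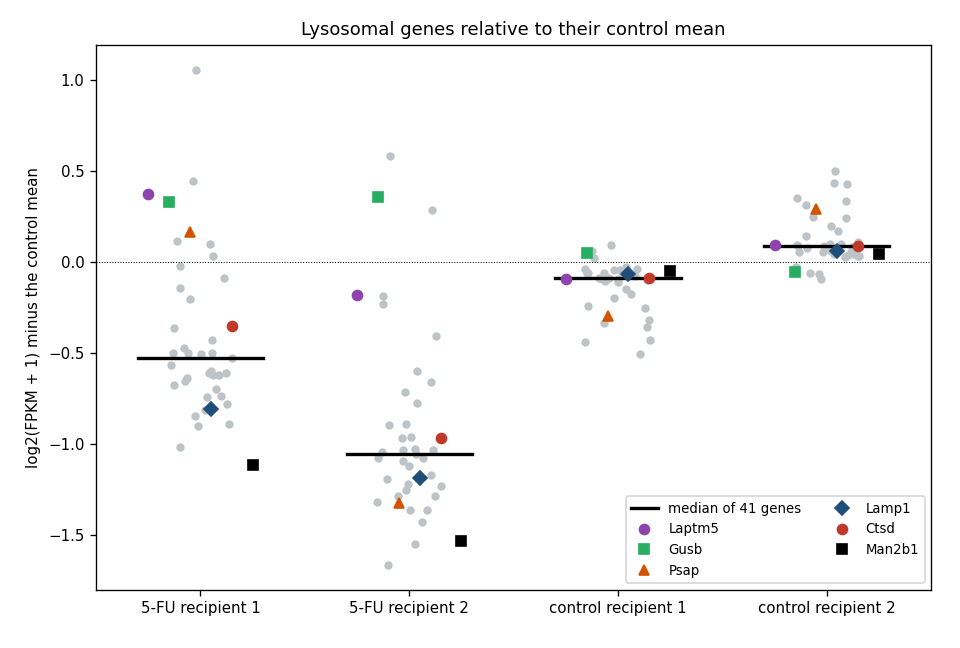
Difference of log2(FPKM + 1) from the gene's control mean for 41 lysosomal genes in each library, with 6 genes in colour, the others in grey and the median as a bar. The medians are −0.52 and −1.05 in 5-FU recipients 1 and 2 and −0.09 and 0.09 in control recipients 1 and 2, and Laptm5 and Gusb lie above the median in both 5-FU libraries.

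The summed level of macrophage markers moved with these genes. Of 24 such markers, none of them in the lysosomal list, 22 had a negative log2 fold change, 4 fell, none rose and 20 did not pass, with a median of −0.95. Their summed FPKM were 29437 and 16249 in 5-FU recipients and 34832 and 40183 in control recipients. The count was 21 without 5-FU recipient 1, 7 without 5-FU recipient 2, 0 without control recipient 1 and 1 without control recipient 2. The 3 of smallest p were Timd4, a receptor for phosphatidylserine, at −1.77, Csf1r at −1.27 and the mannose receptor gene Mrc1 at −1.08. In 13 of the 24 the libraries had the order just described. The sum of the 42 lysosomal genes over the sum of the macrophage markers was 0.587 and 0.680 in 5-FU recipients and 0.607 and 0.614 in control recipients, so the groups overlapped in that ratio. Ratios to Csf1r alone, which was among the 3 markers of smallest p, did not overlap. Ctsd over Csf1r was 40.3 and 45.6 in 5-FU recipients, against 27.5 and 28.2 in control recipients. In the same order Cd68 over Csf1r was 8.89 and 11.4, against 7.2 and 7.5. Lamp1 over Csf1r was 6.19 and 8.23, against 5.9 and 5.84, and Ctss over Csf1r 5.43 and 6.25, against 4.71 and 4.84. The part of the macrophage transcripts in the lysosomal difference was not tested.

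Other markers that moved between the same groups were those of granulocytes, with 7 of 15 lower and 1 higher, of the B and erythroid lineages, with 10 of 13 lower, and of the handling response to dissociation, with 9 of 16 lower. Summed granulocyte markers were 3876 and 3649 FPKM in 5-FU recipients, against 12844 and 10245 FPKM in control recipients. The handling genes summed to 849 and 657 FPKM in 5-FU recipients, against 1808 and 1749 FPKM in control recipients, and without control recipient 1 or 2 only 1 of 16 passed in either case. The B and erythroid markers summed to 240.1 and 209 FPKM in 5-FU recipients, against 811 and 1017 FPKM in control recipients, and 5 of 13 were lower when either control recipient was left out. Of 13 stem and progenitor markers 12 did not pass and Ly6a rose, and of 8 NK, T and dendritic cell markers none passed in limma (0 higher and 2 lower at an unadjusted p under 0.05). The call of Ly6a was lost without either control recipient, with no filter and with no trend. Among 10 monocyte markers 1 rose and 1 fell, and neither call was left when either control recipient was left out. Their part in the lysosomal difference was not tested either.

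Other genes of the pathway were examined in 6 further lists. Of 51 tested lysosomal hydrolases and membrane proteins outside the 42, 14 fell, none rose and 37 did not pass, with a median of −0.68. Plbd1, a phospholipase B-like protein, had 128 and 114 FPKM in 5-FU recipients, against 278 and 287 FPKM in control recipients (log2 fold change −1.21, SE 0.19, adjusted p = 0.0142). Naaa, which hydrolyses N-acylethanolamines, fell by 1.21 and Ctsf, cathepsin F, by 1.52.

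The proton pump and the sorting machinery had smaller medians. Of 18 tested subunits of the V-type proton ATPase 1 fell, none rose and 17 did not pass, with a median of −0.36. A single call in a list of this size is close to the 4.67% of all tested genes called lower, here and in the sorting list. Atp6v0d1, a subunit of its membrane sector, had 38.9 and 38.7 FPKM in 5-FU recipients, against 66.0 and 61.2 FPKM in control recipients (log2 fold change −0.70, SE 0.19, adjusted p = 0.0488). Of 27 genes for mannose 6-phosphate tagging and sorting 1 fell and 26 did not pass, with a median of −0.23. It was Gnptg, a subunit of the phosphotransferase that tags hydrolases, with 43.2 and 35.1 FPKM in 5-FU recipients, against 75.9 and 83.9 FPKM in control recipients (log2 fold change −1.02, SE 0.20, adjusted p = 0.0219).

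Among 25 tested autophagy genes 4 fell, none rose and 21 did not pass, with a median of −0.21. They included Map1lc3a and Map1lc3b, which encode the LC3 proteins of autophagosome membranes, at −0.94 and −0.76, and Atg9a, a membrane protein needed for autophagosome formation, at −1.06. Of 7 tested cathepsin inhibitors 2 fell and 5 did not pass. Cst3, cystatin C, a secreted inhibitor of cysteine cathepsins, had 923 and 932 FPKM in 5-FU recipients, against 1807 and 1828 FPKM in control recipients, and Serpinb6a, an intracellular serine protease inhibitor, fell by 0.99. Cst3 itself fell by 0.97, and unlike most of the cathepsins it was nearly equal in the 5-FU pair.

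The calls in these 6 lists moved with single libraries as well, as did the lower calls over all tested genes given above. Without control recipient 1 or control recipient 2 no gene in any of the 6 lists was called lower. Without 5-FU recipient 1 the numbers lower were 35 for other lysosomal genes, 9 for the proton ATPase, 10 for sorting, 7 for the TFEB relatives and mTORC1, 11 for autophagy and 3 for inhibitors. Without 5-FU recipient 2 they were 17, 2, 1, 1, 5 and 3 in the same order. When either 5-FU recipient was left out, a few higher calls appeared in some lists and among the macrophage markers. Higher calls were common over all tested genes in those fits, so the few in the lists are not read as a result about them. With all 4 libraries and at an unadjusted limma p under 0.05, 1 gene each was higher for the proton ATPase, sorting, TFEB relatives and inhibitors. It was 0 in the other 2 lists and among the macrophage markers. At that threshold 1947 of all 11496 tested genes were higher, so a single higher gene is not read as a result about its list.

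**Figure D4:**
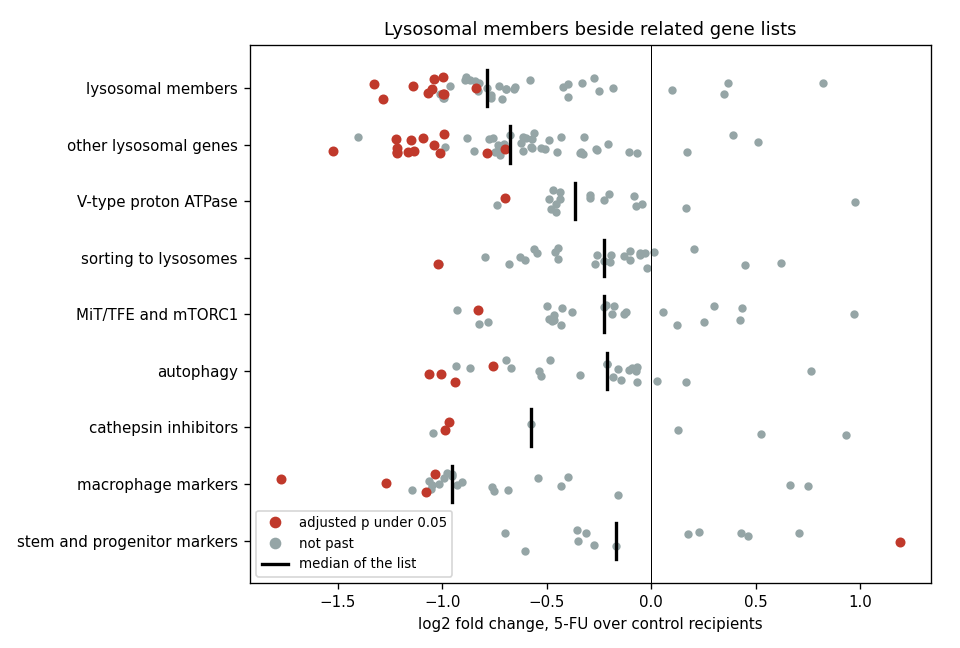
Log2 fold change of 5-FU over control recipients for each tested gene (points) of the lysosomal list, 6 related lists and 2 marker lists, with list medians as bars. The medians are −0.78 for the lysosomal genes, −0.68 for other lysosomal genes and −0.95 for macrophage markers, and between −0.57 and −0.17 for the rest.

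Tfeb itself, the regulator of the pathway, did not pass. It had 18.97 and 11.30 FPKM in 5-FU recipients, against 14.65 and 21.16 FPKM in control recipients, with interleaved values (log2 fold change −0.25, SE 0.31, adjusted p = 0.626). The sign turned to 0.0026 without control recipient 2 and to 0.10 without 5-FU recipient 2. Of 25 genes for its relatives and for the mTORC1 complex that controls them at the lysosome 1 fell, none rose and 24 did not pass, with a median of −0.23, and 1 of 25 is close to the 4.67% called lower over all tested genes. The one that fell was Flcn, folliculin, a regulator of the Rag GTPases, with 49.3 and 38.8 FPKM in 5-FU recipients, against 77.5 and 79.2 FPKM in control recipients (log2 fold change −0.83, SE 0.20, adjusted p = 0.0383). Tfe3, the relative closest in function, was at −0.82 (adjusted p = 0.0633) and the Rag GTPase gene Rragb at 0.97 (adjusted p = 0.0658).

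The element bound by TFEB has the core CACGTG, which is its own reverse complement, and its fuller form contains TCACGTGA, also a palindrome. Both were looked for on either strand in RefSeq promoter windows (GRCm38.p6) that run from 250 bases before a gene's start to 50 after it, and every TCACGTGA is also counted as a CACGTG. Windows were at hand for 38 of the 42 genes. CACGTG occurred in 12 of the 38, or 31.6%, and in 8.09% of 27025 genes with a window. TCACGTGA occurred in 4 of 38, or 10.5%, and in 1.12% of all genes. The 4 were Ctsa, Ctsd, Gla and Mcoln1. The 250 bases before the start are printed for the most abundant gene of the list, for a lysosomal channel gene and for Lamp1, the gene that both passed and held CACGTG, with CACGTG or TCACGTGA in capitals, on the strand of the gene. They lie at chr7:142387828-142388077 on the minus strand (Ctsd), chr8:3500269-3500518 on the plus strand (Mcoln1) and chr8:13158911-13159160 on the plus strand (Lamp1).
Ctsd: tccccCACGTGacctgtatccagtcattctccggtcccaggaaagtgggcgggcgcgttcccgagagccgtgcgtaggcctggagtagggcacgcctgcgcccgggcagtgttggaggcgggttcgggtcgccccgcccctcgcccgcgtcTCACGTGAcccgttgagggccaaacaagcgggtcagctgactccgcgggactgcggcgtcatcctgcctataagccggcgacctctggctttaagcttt
Mcoln1: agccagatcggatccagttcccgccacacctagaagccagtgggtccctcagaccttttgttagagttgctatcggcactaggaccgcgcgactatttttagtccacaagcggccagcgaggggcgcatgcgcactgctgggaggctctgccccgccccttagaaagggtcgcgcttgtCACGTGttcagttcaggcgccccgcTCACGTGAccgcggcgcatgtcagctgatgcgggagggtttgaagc
Lamp1: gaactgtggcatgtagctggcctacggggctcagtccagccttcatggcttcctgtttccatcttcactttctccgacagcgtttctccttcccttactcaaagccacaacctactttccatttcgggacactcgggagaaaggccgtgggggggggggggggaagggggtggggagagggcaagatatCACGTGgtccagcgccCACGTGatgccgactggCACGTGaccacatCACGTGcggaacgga
Lamp1 held 4 copies of CACGTG, which began 61, 45, 28 and 15 bases before the start, and Ctsd and Mcoln1 held 2 copies each. Fold changes of genes with and without the motif overlapped. The median log2 fold change was −0.69 for the 12 genes with CACGTG, from −0.998 for Lamp1 to 0.82 for Gla, and −0.83 for the 25 tested genes whose window lacked it, from −1.32 to 0.37. Of the genes that fell, Lamp1 alone had the motif in its window, and Asah1 and Ctsh had no window. A match of letters is a description and not evidence of binding.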

How the data were processed

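RNA-seq was analysed from 4 libraries of EGFP+ cells, 2 from 5-FU-treated and 2 from untreated recipients, each taken as 1 mouse. Per the submitters' processing notes the tools were TopHat2 2.0.13, Bowtie2 2.2.3, SAMtools 0.1.19 and Cuffnorm 2.2.1 with mm10, and the deposited values are FPKM. Per the labels, cDNA was made with a SMART-Seq kit for little RNA and sequenced as single 75 bp reads. The sources used here do not give the annotation, the scaling setting or the depth. From the commonest ratio between low values, 1 read was worth 1.07 in 5-FU recipient 1, relative to 5-FU recipient 2. It was worth 1.307 and 1.257 in control recipients 1 and 2. By this estimate 1 read added the most FPKM in the control libraries. The ratio was shared by 141 of 1387 low genes in 5-FU recipient 1. In control recipients 1 and 2 it was shared by 121 of 1335 and 118 of 1344, so the estimate rests on a small part of them. Whole reads were not recovered.

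FPKM were used as deposited. Values of log2(FPKM + 1) were fitted with limma 3.58.1 (R 4.3.3; lmFit, eBayes with trend, two-sided) for the 11496 genes that reached 1 FPKM in at least 2 libraries, with Benjamini-Hochberg adjustment over all of them and a threshold of 0.05. There were 2 residual and 5.62 prior degrees of freedom. Fold changes on this scale understate the change of low genes. The model was also run on simulated data of 11496 genes, in 10 runs with 200 changed genes each. It found 22.1% of simulated log2 changes of 1 and 95.8% of those of 2, and called 0.0381% of unchanged genes. The real data gave more calls than that, at 946 higher and 537 lower. Whether real genes vary between libraries as the simulated ones do was not tested, so these rates describe the simulation only. The labels name no pairing, so replicate numbers were not in the main model. The genes, the related lists and the alternatives (pseudocount, filter, scaling, variance model, replicate block, leaving out each library) were chosen with earlier results of these data known. Genes were given in full where they passed, were among the 10 most abundant of the list, or were Tfeb, Mcoln1, Lamp1, Lamp2, Cd68 or Cd63, and further lists by at most 3 genes of smallest p; genes with fewer values, and Kit, Gusb, Gla, Arsb, Cst3 and the gene ratios, were added after their values were seen. Of 272 genes in 13 further lists, 267 matched by symbol, 4 by a RefSeq synonym and 1 not at all. Coordinates and promoter sequences are from RefSeq, GRCm38.p6, to which mm10 corresponds. Figures were drawn with matplotlib 3.10.9.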

Additional observations from a re-analysis of the deposited data

How the results depend on the processing

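The negative median of the 41 genes held under every alternative run, and ranged from −1.05 without 5-FU recipient 1 to −0.52 without 5-FU recipient 2. The number of these genes called lower, 10, was 0 with no filter (25 at an unadjusted p under 0.05), 16 with a filter of 5 FPKM, 2 with no trend and 6 with the replicate number as a block, and ranged from 0 to 33 when 1 library was left out. None of the 41 was called higher under any of them in limma, and at most 1 had a higher value at an unadjusted p under 0.05. Over all genes, 946 higher and 537 lower calls became 3 and 4 with no filter and 548 and 299 with no trend, and ranged from 88 to 2122 and from 38 to 1876 when 1 library was left out, where a lone library is assumed to vary like the other group. The block had 5 of the 10 genes among its 6. Same-numbered libraries deviated against each other (r = −0.159 across genes), and a crossed pairing, chosen after seeing the data, called 26 of the 41 genes lower and 1686 genes higher and 1365 lower in all. Of 614 values of single genes under an alternative, 505 kept their direction and side of the threshold, 55 newly passed, 46 no longer passed and 8 changed sign. Those 8 were Laptm5 by quantile normalization (−0.14) and, with 1 library left out, Laptm5 (−0.18 to 0.38, negative without 5-FU recipient 1), Arsa (−0.69 to 0.32, and 0.037 without 5-FU recipient 2), Tfeb (−0.60 to 0.10, and 0.0026 without control recipient 2), Gaa (−0.96 to 0.11) and Psap (−1.32 to 0.17), the last 2 positive without 5-FU recipient 2. The cause was not tested. With 2 libraries a group and no stated depth, small changes could not be told from the spread between recipients.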
